A study of Mus musculus with 6 samples.

Results

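H3K4me3 regions in later exons are called regions of the histone mark whose annotation names exon 2 or a higher exon of a transcript. They were taken by that rule from the lists of H3K4me3 replicates 1 and 2. Replicate 1 held 197 of them among 8129 regions (2.42%, exact 95% interval 2.10 to 2.78%). Replicate 2 held 8 among 320 (2.5%, 1.09 to 4.87%). Together that is 205 of 8449 regions. The rule uses position in a transcript and no measured value.

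H3K4me3, trimethylation of lysine 4 of histone H3, marks the start sites of active and poised genes, and is written there by SET1 and MLL complexes. Inside gene bodies it is usually low, where H3K36me3, written during elongation, is found instead. An internal start site can place the mark in a later exon of a longer transcript. In meiotic prophase PRDM9 also writes it at recombination hotspots away from promoters, and in growing oocytes after birth it is known to spread into broad domains. TAF4b is a subunit of TFIID, the complex that binds core promoters, and female mice without it are infertile.

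The study mapped H3K4me3, TAF4b and an IgG control by CUT&RUN, in which a nuclease tethered to an antibody releases the DNA around its target for sequencing. Each target had 2 libraries, 6 in all, from oocytes of female embryos at E16.5, a stage late in gestation, that were wild type for Taf4b, on a strain labelled C57BL/6. All groups carry the Oct4-EGFP transgene, whose GFP was used to sort live germ cells from dissociated gonads. The labels do not say how many embryos gave a library or whether replicates came from separate animals, so agreement between them may be technical. IgG was not analysed here, and oocyte markers were not checked, because the lists give Ensembl transcripts without gene names. Without read totals the depth of each library is unknown, and intervals cover counting error only. Regions of a list are not replicates, so differences between groups of regions are described and were not tested.

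Positions are those of the files, on the build GRCm39. Exons of a transcript are counted from its 5′ end. In 41 of the 197 regions the transcript that holds the exon also has the nearest transcription start site (TSS), and all 41 lay downstream of it, as that numbering requires.

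Most later-exon regions sat in the last exon of their transcript. In replicate 1 this was so for 120 of 197 (60.9%, exact 95% interval 53.7 to 67.8%). A transcript with 2 exons allows nothing else, and 44 of the 197 were in exon 2 of 2. Among the 153 regions in transcripts with 3 or more exons, 76 were in the last one (49.7%, 41.5 to 57.9%). The share was 32 of 44 in transcripts of 3 to 4 exons, 22 of 48 in those of 5 to 10, and 22 of 61 in longer ones (36.1%, 24.2 to 49.4%). Exon lengths were not at hand, so the share that length alone would give is unknown. A preference for last exons was not tested. Regions that the annotation gives to transcription end sites, 295 in replicate 1, form a class of their own and are not counted here. In replicate 2 none of the 8 was in a last exon. At that number a share of up to 37.5% is allowed by a count of 0.

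Exon 2 was the most frequent position, with 71 of the 197 regions (36.0%). Exon 3 followed with 27, exon 4 with 16 and exon 5 with 10. Exons 6 to 10 held 28 regions, and 45 lay in exon 11 or higher. The median exon number was 4, in transcripts with a median of 5 exons. The regions fell in 196 different transcripts. The only transcript with more than 1 was ENSMUST00000099981, whose 347 exons were also the most of any transcript named for an exon or intron in the list. Its regions, in exons 47 and 342 on chromosome 2, had scores of 83.5 and 60.3. The closest pair of later-exon regions was 29804 bp apart, so the 197 regions are separate sites.

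**Figure D1:**
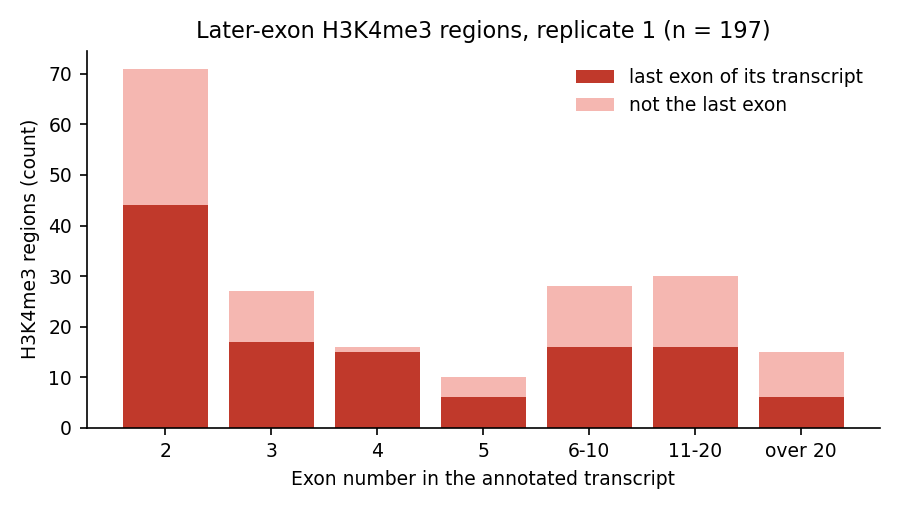
Number of later-exon H3K4me3 regions of replicate 1 (vertical axis) by exon number in the annotated transcript (horizontal axis), with regions in the last exon in dark red and the others in light red. Exon 2 holds 71 of the 197 regions, 44 of them in exon 2 of 2.

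Later-exon regions lay kilobases from the nearest annotated start, between first exons and later introns. The median distance from region centre to TSS, regardless of direction, was 3677 bp in replicate 1 (exact binomial 95% interval 2682 to 4516 bp), and values ran from 120 to 176117 bp. First-exon regions had a median of 220 bp, later-intron regions 11795 bp and regions of the promoter-TSS class 78 bp. Within 1 kb of a TSS were 42 of the 197 later-exon regions (21.3%, 15.8 to 27.7%), against 447 of 485 in first exons (92.2%) and 58 of 1280 in later introns (4.53%, 3.46 to 5.82%). The annotation class itself sets part of this order. Of the 1975 regions centred within 1 kb upstream of a TSS, 1973 were in the promoter-TSS class and none in a later exon, so all 42 lay downstream.

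At the boundary of the rule, regions in exon 2 had a median distance of 1388 bp and regions in exon 1 had 220 bp. Of the 71 in exon 2, 31 were within 1 kb of a TSS (43.7%). The share was 6 of 53 in exons 3 to 5 and 5 of 45 in exon 11 or higher. No region in exons 6 to 10 was within 1 kb. Median distances in those groups were 4696 bp for exons 3 to 5, 5832 bp for exons 6 to 10 and 5974 bp for exon 11 or higher. Across the 197 regions, exon number and distance had a Spearman rho of 0.447, a description over sites of 1 library.

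**Figure D2:**
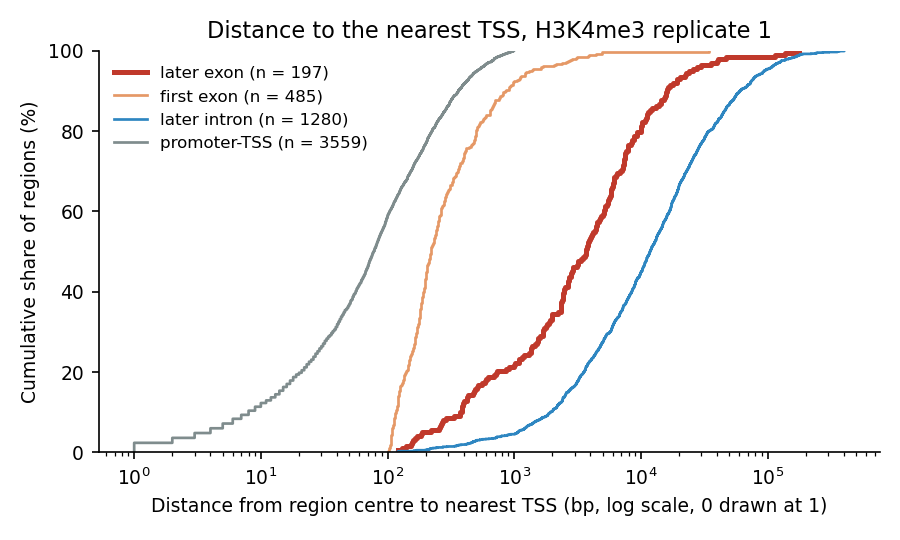
Cumulative share of H3K4me3 replicate 1 regions (vertical axis, percent) by distance from the region centre to the nearest TSS (horizontal axis, bp on a log scale, with 0 drawn at 1), for 4 annotation classes. The later-exon curve lies between those of first exons and later introns, with medians of 3677, 220 and 11795 bp.

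The nearest TSS mostly belonged to a transcript other than the one that holds the exon. That was so for 156 of the 197 regions (79.2%). Among the 42 within 1 kb it was so for 35, which were therefore in a later exon of one transcript and just downstream of the start of another. Of these 42, 15 were wide enough to cover the nearest TSS. Beyond 1 kb, 54 regions lay upstream of the nearest TSS, at a median of 7226 bp, and 101 lay downstream of it, at a median of 4316 bp. Upstream positions made up 7 of 71 regions in exon 2 and 14 of 28 in exons 6 to 10. A start nearer than the transcript's own was thus common, whether or not it was in use, which the lists do not show. The trait is not particular to later exons. The transcript's own start was nearest for 20.8% of later-exon and 11.5% of later-intron regions, and for 42.1% in first introns and 68.0% in first exons. The other transcript may be of the same gene, since gene names were not at hand.

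The regions farthest from any TSS were in high exon numbers and had middling or low scores. The farthest lay on chromosome 2 at 44284992 to 44285492, in exon 15 of 15 of ENSMUST00000112824, at 176117 bp downstream of the nearest TSS, with a score of 37.1. The next lay on chromosome 13 at 104581820 to 104582529, in exon 19 of 24 of ENSMUST00000224303, at 138319 bp, with a score of 46.4. The third was on chromosome 3 at 80595678 to 80596313, in exon 16 of 16 of ENSMUST00000107745, at 113891 bp and also with a score of 46.4. The next 2 by distance had scores of 55.7 and 27.8, so none of these 5 was among the highest 25% of scores.

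Most later-exon regions had the smallest width, as did most regions of the list. Of the 197 in replicate 1, 117 were 500 bp wide (59.4%, exact 95% interval 52.2 to 66.3%), an interval that holds the 53.0% of all regions. The share was 66.7% between genes, 60.7% in first introns, 59.4% in later introns (56.6 to 62.1%), 47.8% in first exons (43.3 to 52.4%) and 44.1% in the promoter-TSS class (42.4 to 45.7%). The next width found in the list was 625 bp. Wider than 1000 bp were 9 later-exon regions (4.57%, 2.11 to 8.50%), against 87 of 485 in first exons (17.9%, 14.6 to 21.7%). That share was 10.2% over all regions (9.57 to 10.9%) and 5.16% in later introns (4.01 to 6.51%). The later-exon interval lies below that of all regions and holds the later-intron share. For the share wider than 1000 bp the intervals of later exons and of first exons do not overlap, and for the share at 500 bp they overlap slightly. In replicate 2, 6 of the 8 had the smallest width and the widest was 885 bp.

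The peak score is the authors' own value per region, of a scale that the sources do not state, and is read here only within a list. In replicate 1 the median score of later-exon regions was 39.4 (exact binomial 95% interval 37.1 to 41.8), with values from 25.5 to 192.6. All regions had a median of 41.8, later introns 41.8, first exons 44.1 and the promoter-TSS class 46.4. Among the highest 25% of scores in the list were 38 of the 197 (19.3%, 14.0 to 25.5%), against 241 of 1280 in later introns (18.8%, 16.7 to 21.1%) and 1210 of 3559 in the promoter-TSS class (34.0%, 32.4 to 35.6%). The later-exon and promoter intervals do not overlap, while later exons and later introns lie within each other's error. Because tied scores are common, this top group holds 25.8% of the list.

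Score went with width among these regions. The 117 regions of 500 bp had a median score of 34.8, and the 80 wider ones had 55.7. Over all 197 the Spearman rho of width and score was 0.756. Whether the score per length differs was not tested. Distance to the TSS and score had a rho of -0.05. In the last exon the median score was 37.1 over 120 regions (34.8 to 41.8), and in other later exons it was 41.8 over 77 (39.4 to 48.7). These intervals overlap, and 62.5% of the former and 54.5% of the latter were 500 bp wide. Regions within 1 kb of a TSS had a median of 44.1 (37.1 to 51.0) and those beyond had 39.4.

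**Figure D3:**
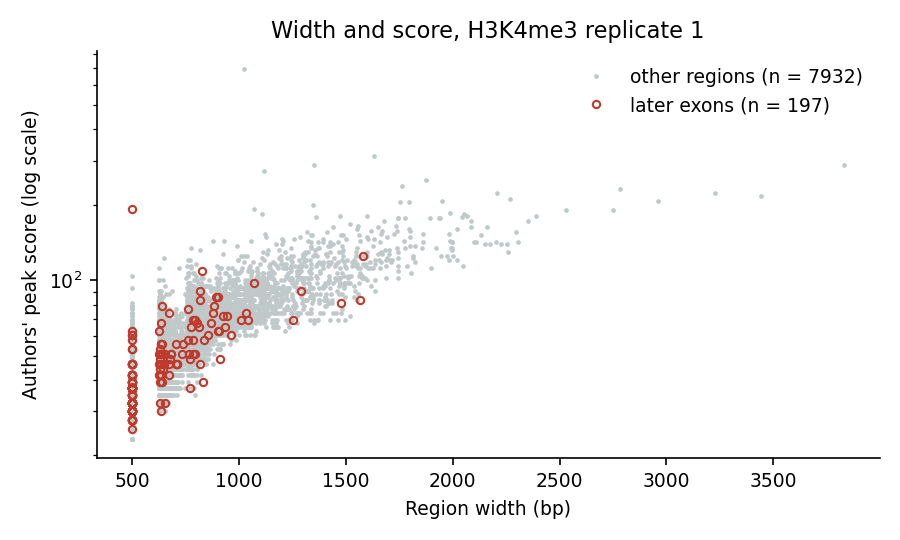
Authors' peak score (vertical axis, log scale) against region width (horizontal axis, bp) in H3K4me3 replicate 1, with the 197 later-exon regions as red circles and the 7932 others as grey points. Most red circles lie in the lower left, 117 of them at 500 bp, and one of those stands apart at a score of 192.6.

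The highest score in a later exon was on an unplaced contig. That region, at 53590 to 54090 of the contig, was in exon 6 of 7 of ENSMUST00000179505, 5827 bp downstream of the TSS of the same transcript. Its score of 192.6 was the highest of all 4311 regions of 500 bp, the next being 104.4, and ranked 18 in the list. The contig held 3 regions of replicate 1 in all. Leaving this region out, the median score of the other 196 was still 39.4.

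On placed chromosomes, 5 of the 7 strongest later-exon regions were in last exons. Among all 38 with the highest 25% of scores the count was 22 (57.9%), near the 60.9% of all 197. The highest on a placed chromosome, on chromosome X at 36347730 to 36349309, was in exon 2 of 2 of ENSMUST00000131149, with a score of 125.3. At 1579 bp it was also the widest later-exon region, and it covered the TSS of its own transcript, 290 bp from its centre. The next, on chromosome 1 at 60144573 to 60145401, was in exon 2 of 2 of ENSMUST00000150008 with a score of 109 and lay 484 bp downstream of the start of ENSMUST00000187978. It was followed by a region on chromosome 12 at 87209973 to 87211041, in exon 9 of 9 of ENSMUST00000222222, with a score of 97.4 and 6125 bp from the TSS of that transcript. These 3 and the contig region are unlike in position, since they range from close to a start to over 5 kb away.

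Scores of 90.5 were shared by the next pair. One was on chromosome 7 at 43953690 to 43954978, in exon 4 of 4 of ENSMUST00000004587. The other, on chromosome 11 at 79437642 to 79438460, was in exon 41 of 57 of ENSMUST00000108251, yet only 917 bp downstream of the TSS of ENSMUST00000137997. The last of the 8 highest were in exon 2 of 3 of ENSMUST00000225135 on chromosome 19 and in exon 3 of 3 of ENSMUST00000122088 on chromosome 9, each with a score of 85.8. Among the 5 widest were 3 further regions. A region of 1568 bp on chromosome 17 at 29523142 to 29524710 was in exon 8 of 8 of ENSMUST00000234711, and one of 1477 bp on chromosome 5 at 136303547 to 136305024 was in exon 24 of 24 of ENSMUST00000176778. Their scores were 83.5 and 81.2. The fifth in width, 1252 bp, was the only one of the 5 outside a last exon. It lay on chromosome 12 at 31314855 to 31316107, in exon 2 of 34 of ENSMUST00000169088, with a score of 69.6, and covered the TSS of ENSMUST00000170495, 185 bp from its centre.

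Later-exon regions mostly lay more than 10 kb from a called promoter region. The gap between the edges of a later-exon region and the nearest promoter-TSS region of replicate 1 had a median of 94490 bp (exact binomial 95% interval 63434 to 138885 bp) and a lowest value of 627 bp. The lowest gap between any region and a promoter-TSS region of the list was 504 bp. A mark that runs without a break from a promoter into a later exon would be listed as a single region, in the class of its centre. Of the 197 later-exon regions, 15 covered the nearest TSS, and whether they are such regions was not tested. Over all regions of the list the median gap was 129234 bp, which the later-exon interval holds. Promoter-TSS regions were a median of 89539 bp (82676 to 96096 bp) from the next of their kind, and later-intron regions were 176740 bp (157845 to 198545 bp) from one. First-exon regions had a median gap of 110689 bp and regions at transcription end sites 66427 bp. The later-exon interval holds both of these and the promoter median, and lies below the interval of later introns.

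Gaps of at most 1 kb were found for 2 of the 197, of 1 to 10 kb for 18, of 10 to 100 kb for 81 and of more than 100 kb for 96. The share within 10 kb was 10.2% (6.31 to 15.2%), against 6.32% over all regions (5.80 to 6.87%), which overlaps it. It was above the interval of later introns at 3.83% (2.85 to 5.03%) and overlapping that of first exons at 6.60% (4.56 to 9.19%). Regions at transcription end sites had a similar share, 10.5% (7.25 to 14.6%). In 16 of the 197 the same transcript also named or was nearest to a promoter-TSS region of the list (8.12%, 4.71 to 12.9%). Over all regions this share was 1.81%, where only regions in exons or introns can count. It was 6.02% in later introns (4.78 to 7.46%), 4.11% in first introns and 1.24% in first exons. The later-exon and later-intron intervals overlap. For those 16 the median gap was 7940 bp, from 627 to 115017 bp. Transcripts of 1 gene have different identifiers, so this count misses promoters that are listed under another transcript.

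**Figure D4:**
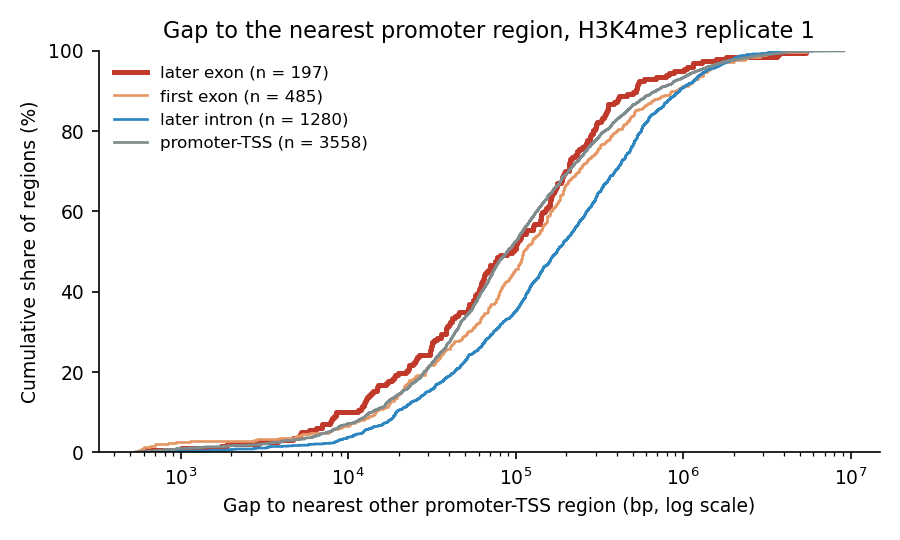
Cumulative share of H3K4me3 replicate 1 regions (vertical axis, percent) by the gap to the nearest other promoter-TSS region (horizontal axis, bp on a log scale), for 4 annotation classes. Later exons, first exons and the promoter-TSS class have medians of 94490, 110689 and 89539 bp, and later introns lie to the right with 176740 bp.

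TAF4b was nearly absent from later-exon regions. In replicate 1, 1 of 197 overlapped a TAF4b peak of either list by at least 1 bp (0.508%, exact 95% interval 0.0129 to 2.80%), while over all regions of the list the share was 10.7%. Later introns had 4 of 1280 (0.312%, 0.0852 to 0.798%), which is within the error of later exons. First exons had 58 of 485 (12.0%, 9.21 to 15.2%) and the promoter-TSS class 766 of 3559 (21.5%, 20.2 to 22.9%). The classes differ in distance to a TSS, where TAF4b peaks lie. In replicate 2, 0 of 8 overlapped a TAF4b peak, against 26.2% of all its regions, and a count of 0 among 8 allows a share of up to 37.5%.

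The later-exon regions close to a TSS were also without TAF4b. Among the 42 within 1 kb downstream of a TSS, 0 overlapped a peak, which allows a share of up to 8.41% by the exact interval. First-exon regions at the same distances did so in 56 of 447 cases (12.5%, 9.60 to 16.0%), and first-intron regions in 28 of 563 (4.97%, 3.33 to 7.11%). Later-intron regions did so in 1 of 58 (1.72%, 0.0436 to 9.24%), so a low share is not particular to later exons. The later-exon interval lies below that of first exons and overlaps those of first introns and later introns. The 42 lay at a median of 387 bp and the first-exon regions at 205 bp. By distance, first exons had 41 of 276 at up to 250 bp, 11 of 112 at up to 500 bp and 4 of 59 at up to 1000 bp, where later exons had 0 of 11, 0 of 20 and 0 of 11. Within each of these distance groups the intervals overlap, so at matched distance a lower share in later exons was not detectable at these numbers.

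The 1 overlap was at the region on chromosome 7 in exon 4 of 4 of ENSMUST00000004587, 1288 bp wide and 1992 bp from the TSS of that transcript. The TAF4b peak, on chromosome 7 at 43954357 to 43954491, was from replicate 2, with a score of 23.3 that ranked 293 of 1111, and it had no counterpart in TAF4b replicate 1. It was centred in an intron by its own annotation, 90 bp closer to the TSS than the centre of the region. Within 1 kb, but without overlap, a TAF4b peak lay at 2 others, both in exon 2, at gaps of 375 and 265 bp. Without TAF4b replicate 2 the count was 0 of 197.

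**Figure D5:**
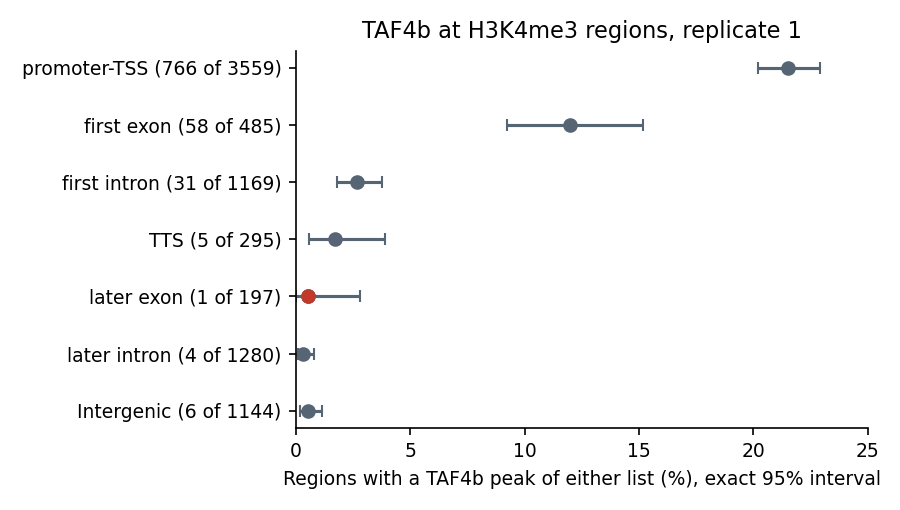
Share of H3K4me3 replicate 1 regions that overlap a TAF4b peak of either list (horizontal axis, percent, with exact 95% intervals) by annotation class (vertical axis, with counts). Later exons, in red, stand at 1 of 197, near later introns and regions between genes and below first exons and the promoter-TSS class.

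Few later-exon regions were called in both libraries. In replicate 1, 3 of the 197 were also called in replicate 2 (1.52%, exact 95% interval 0.315 to 4.39%), where the whole list had 2.84%. In replicate 2, 5 of the 8 were also called in replicate 1 (62.5%, 24.5 to 91.5%), where the whole list had 72.2%. Each interval holds the share of its whole list. The lists hold 8129 and 320 regions, so absence from the shorter one says little.

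The 3 shared regions were in the same exon in each list. The contig region scored 192.6 and 226.9, ranking 18 and 11. A region in exon 6 of 10 of ENSMUST00000195394, on chromosome 1 at 172002835 to 172003335, scored 32.5 and 85.1, with centres 13 bp apart. One in exon 2 of 12 of ENSMUST00000107894, on chromosome 11 at 88950936 to 88951436, scored 32.5 and 85.1 as well, with centres 82 bp apart. The centre lay 388 bp downstream of the TSS of ENSMUST00000000285 in replicate 1 and 470 bp downstream in replicate 2. Apart from the contig, then, the shared regions were low in replicate 1, where both ranked 6169. The other 2 of the 5 met a promoter-TSS region of replicate 1. They were in exon 2 of ENSMUST00000110230 on chromosome 15, with a score of 113.4, and in exon 2 of ENSMUST00000025218 on chromosome 18, with a score of 78. Their centres were 25.5 and 326.5 bp from those of the replicate 1 regions, and their class differed between the lists.

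The remaining 3 were called in replicate 2 alone. One of them had the highest score of that list, 27445.5, which was 6.94 times the second score of 3956.2. It lay on chromosome 2 at 98496936 to 98497821, in exon 4 of 5 of ENSMUST00000099683, and covered the TSS of that transcript, 268 bp from its centre. Replicate 1 had no region within 514414 bp of it, and no TAF4b peak was closer than 2961522 bp. This region thus had no counterpart in any of the other 3 lists, and it was not compared with IgG. No genome sequence was at hand, so repeats and mapping were not checked for any region or peak. That holds for this region and for the one on the contig. The others were in exon 9 of 12 of ENSMUST00000238963 on chromosome 5 and in exon 4 of 21 of ENSMUST00000182393 on chromosome 1, each with a score of 78.

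Later-exon regions were found on the contig, on the X chromosome and on all 19 autosomes. The share of a chromosome's regions that were in later exons ran from 4 of 338 on chromosome 17 (1.18%, 0.323 to 3.0%) and 5 of 421 on chromosome 6 (1.19%, 0.387 to 2.75%) to 15 of 375 on chromosome 12 (4%, 2.26 to 6.51%). Each of these intervals holds the 2.42% of the whole list. The X chromosome had 5 of 234 (2.14%, 0.697 to 4.92%).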

How the data were processed

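CUT&RUN libraries were grouped by target from their titles. The authors deposited 1 list of called features per H3K4me3 and TAF4b library, not pooled, with HOMER's column names per the file headers. The submitters' processing notes name Bowtie2 2.3.0, SAMtools 1.9, HOMER 4.10 and GRCm39, without roles or settings. The deposited peak score has no stated scaling, and the role of IgG in calling is not stated. The deposited distance to the TSS matched region centres within 1 bp in 103 of 103 pairs of regions with 1 nearest transcript and unequal widths. The annotation class was read as that of the centre.

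Later exons were taken as exon 2 or higher in the annotation. Overlap was at least 1 bp, and gaps were measured between edges. Shares have exact (Clopper-Pearson) 95% intervals and medians exact binomial ones. For a count of 0 among 8, the share allowed was set at 3 counts of the total. Of 360 transcript identifiers, 0 matched the RefSeq table of GRCm38.p6, so no gene is named. Regions were named by rule: in replicate 1 the 8 highest scores, the 5 widest, the 5 farthest from a TSS, up to 10 with TAF4b and up to 10 found in replicate 2, transcripts with 3 or more regions (there were none), and all of replicate 2. Others named were chosen after their values were seen. Members, lists and rules were chosen with earlier results of these data known. The scripts were tested on simulated data. Python 3.11.15, pandas 2.3.3, NumPy 2.4.6, SciPy 1.17.1 and matplotlib 3.10.9 were used.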

Additional observations from a re-analysis of the deposited data

How the results depend on the processing

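Of 46 alternatives to 10 values, 30 stayed within the 95% interval of the reported value and 16 moved outside it. None could reverse, since shares and medians have no direction. The reported values are those of replicate 1, so leaving out H3K4me3 replicate 2 returned them unchanged by construction. Those alternatives count among the 30. Of the 46, 2 were chosen after seeing the data. Leaving out either H3K4me3 replicate, with 8 regions once replicate 1 is gone, gave a last-exon share of 0 to 60.9%, a median distance to the TSS of 958.5 to 3677 bp, a share at the smallest width of 59.4 to 75%, a median score of 39.4 to 85.1 (on another scale), a median gap to a promoter-TSS region of 94490 to 2600263.5 bp, and a share of the list of 2.42 to 2.5%. Without replicate 1, 62.5% were found in the other list and 37.5% were among the highest 25% of scores. Leaving out an H3K4me3 or a TAF4b replicate gave a TAF4b share of 0 to 0.508%. Without the lowest 25% of scores, by construction, the median score rose to 46.4 and the share among the highest 25% to 27.9%. With the same cut the share at the smallest width was 43.4% and the median width 632.5 bp. These 2 width values depend on the cut and do not follow by construction, since score went with width in these data. Beyond 1 kb of a TSS the median distance was 5165 bp, again by construction. With promoters taken as regions within 1 kb of a TSS the median gap was 62272 bp. With the replicate block, which pairs lists of the same number, TAF4b overlapped 0 of 205 regions (0%); the labels do not say that a number marks a shared animal or day. As depth is unknown, a region missing from a list may lack reads.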

Other observations

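TAF4b peaks were themselves seldom centred in later exons, in 3 of 983 peaks of replicate 1 (0.305%, exact 95% interval 0.0630 to 0.889%) and 2 of 1111 of replicate 2 (0.180%, 0.0218 to 0.649%). None of the 5 lay in an H3K4me3 region of either list. The share of all TAF4b peaks that lie in such a region is not given here. The count is therefore not read as a trait of these 5 peaks. The nearest H3K4me3 region of replicate 1 was 5359 bp away for the peak in exon 33 of 43 of ENSMUST00000061013 and 8843 bp away for that in exon 3 of 7 of ENSMUST00000032818, and 58492 to 781640 bp away for the other 3. The highest score among the 3 of replicate 1 was 13.9, in exon 2 of 4 of ENSMUST00000155807, 255 bp downstream of a TSS.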
